A study of Mus musculus with 4 samples.

Results

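The genes described here are 9 regulators of the embryonic mammary bud, Pthlh, Pth1r, Bmp4, Sostdc1, Msx1, Msx2, Lef1, Tbx2 and Tbx3, taken by symbol from a table of 54446 mouse genes. The mammary bud forms when placodes of the surface ectoderm sink into the mesenchyme below, and the T-box factors TBX2 and TBX3 and Wnt signals read through LEF1 act early in this process. Bud epithelium then secretes parathyroid hormone-related protein, the product of Pthlh, which reaches its receptor PTH1R on the mesenchyme and makes that tissue responsive to BMP4. The homeobox factors MSX1 and MSX2 lie downstream of BMP signals, and SOSTDC1 is a secreted antagonist of BMP and Wnt signals.

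The libraries came from wild type C57BL/6 mice, whose mammary cells were sorted by flow cytometry and cultured in 3D in Matrigel, a basement membrane gel, in a medium with EGF, insulin, transferrin and selenium. Cells labelled basal and cells labelled luminal were each given either 100 μM baicalin, a flavonoid glucuronide of Scutellaria root, or DMSO, the vehicle, so that the 4 groups were basal with DMSO, basal with baicalin, luminal with DMSO and luminal with baicalin. Each group had 1 library of polyadenylated RNA, and primary cells were taken from female mice, virgin or at other stages, that were 6 to 9 weeks old. The age and number of the mice behind each library are not given in the sources used here. The study asked how baicalin changes the transcriptome of the basal and luminal layers of the mammary gland.

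Levels are given in FPKM, a gene's fragments divided by the length of its exons and by the depth of the library. The steps between low FPKM values gave back 19853631 and 20283074 fragments for the basal DMSO and basal baicalin libraries, and 19356119 and 20648819 for the luminal DMSO and luminal baicalin libraries. With 1 library per group there is no replicate check and no p-value. The 95% intervals below, exact Poisson for a level and exact Clopper-Pearson for a ratio, cover counting error only. Changes called past the threshold exceed 1 on the scale of log2(FPKM + 1), which understates changes of genes with low FPKM, and were counted over 17787 genes whose FPKM exceeded 0 in each of the 4 libraries. Of the 9 regulators, 6 were among these genes, and Pth1r, Msx1 and Lef1 were not because each was listed at 0 in at least 1 library.

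The labels of the libraries went against their cell type markers. Of 10 basal markers, 10 had a higher FPKM under the luminal label than under the basal label, with DMSO and again with baicalin, and of 10 luminal markers 10 had a higher FPKM under the basal label in both cases. Basal markers summed to 1761 and 479.4 FPKM in the libraries labelled basal with DMSO and with baicalin, and to 5404 and 7199 FPKM in those labelled luminal, with Krt14 the most abundant in each. Luminal markers summed to 4616, 3290, 1398 and 1209 FPKM in the same order, led by Krt8 in 3 libraries and by Krt18 in the basal baicalin library. The methods of the study state routine checks of the purity of sorted cells, and the source of this conflict was not tested. No library can be left out to remove the conflict, since it held for both pairs. Every direction between labels below is a direction between libraries as labelled.

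Markers of other cell types also varied between the libraries, and values follow in the order basal DMSO, basal baicalin, luminal DMSO, luminal baicalin. The 10 fibroblast markers summed to 714.2, 500.7, 67.4 and 85.8 FPKM, nearly all of it Fn1 in the libraries labelled basal, and 6, 9, 5 and 3 of them were under 1 FPKM. The 8 immune markers summed to 17.9, 54.5, 6.01 and 17.8 FPKM, led by Lyz2 in the first library and by Cd68 in the others, while Ptprc, which defines leukocytes, was at most 0.0138 FPKM. The 5 endothelial markers summed to at most 3.46 FPKM and the 4 adipocyte markers to at most 6.01 FPKM, led by Cdh5 or Pecam1 and by Adipoq or Plin1. The 6 hormone-sensing markers, led by Ly6a, summed to 61.0, 28.2, 53.3 and 83.3 FPKM, but 4 of the 6 were higher under the luminal label with DMSO, among them Pgr, at 1.08 against 4.81 FPKM, Foxa1, at 1.80 against 9.30, and Cited1, at 0.0574 against 7.36. These 4, unlike the 10 basal and 10 luminal markers, went with the labels, and with baicalin 3 of the 6 were higher under the luminal label. The 8 alveolar markers, led by Aldh1a3, summed to 202.5, 111.3, 65.8 and 169.7 FPKM, and the milk protein gene Wap was listed at 0 in all 4 libraries.

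Among the bud regulators, Pthlh and Sostdc1 were lower with baicalin in the libraries labelled basal, and the libraries carrying different labels were set apart by Sostdc1, Tbx2 and Msx1 on the side labelled luminal and by Bmp4 on the side labelled basal. Tbx3 was well detected in all 4 libraries, whereas Pth1r and Lef1 were near the limit of detection in each. In the libraries labelled basal, 2 of the 6 regulators counted, Pthlh and Sostdc1, were lower with baicalin past the threshold and 0 were higher, where 3.33% of all genes counted were lower and 2.15% higher. In the libraries labelled luminal, 0 of 6 were lower and 0 higher, where 1.59% of all genes were lower and 2.37% higher. The median change of the 6 with baicalin was −0.13 under the basal label and 0.011 under the luminal label, beside 0.0087 and −0.021 over all genes counted.

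With DMSO, 2 of the 6, Sostdc1 and Tbx2, were higher in the library labelled luminal and 1, Bmp4, was lower, where 4.71% of all genes were higher and 3.86% lower. With baicalin, 3 of the 6, Pthlh, Sostdc1 and Tbx2, were higher under the luminal label and 1, Bmp4, was lower, where 5.24% of all genes were higher and 2.99% lower. The median difference between labels was 0.72 for the 6 with DMSO and 0.85 with baicalin, beside 0.0099 and −0.027 over all genes. These 4 comparisons were made from the same 4 libraries, each library entering 2 of them, so their values are given side by side and are not independent of each other.

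**Figure D1:**
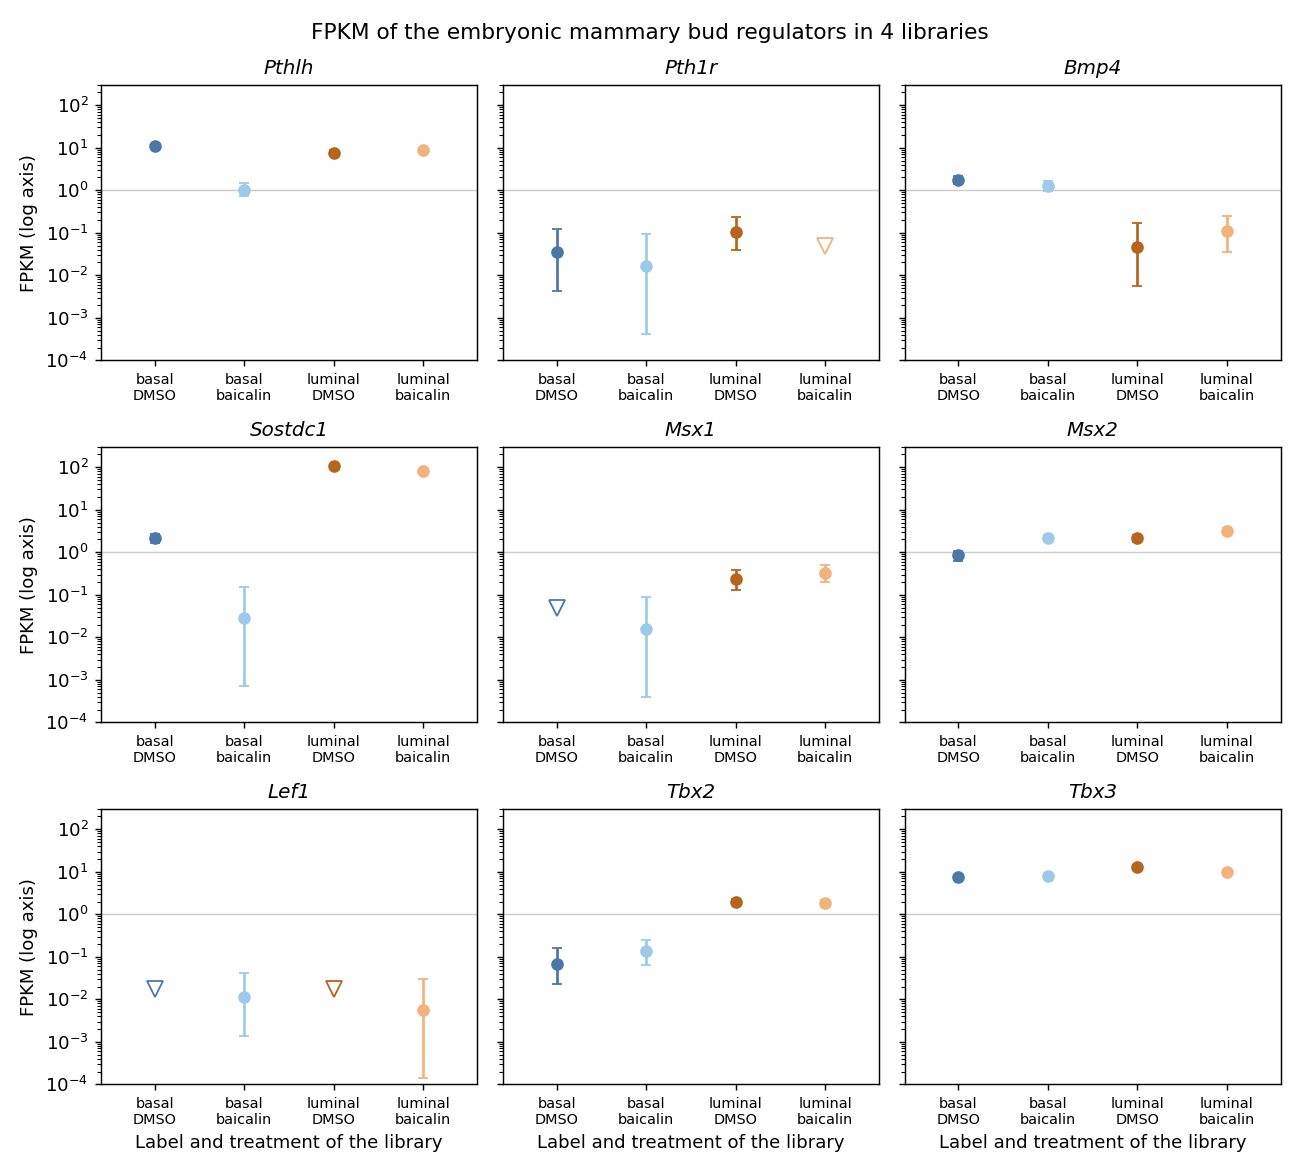
FPKM of each of the 9 regulators on a log axis, 1 point for each library by its label and treatment, with bars for the exact 95% Poisson interval of the fragments counted and open triangles at the level of 3 fragments where none was counted. Sostdc1 spans the widest range, from 0.0277 FPKM in the basal baicalin library to 107.8 FPKM in the luminal DMSO library, and Tbx3 lies between 7.51 and 12.7 FPKM.

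Pthlh (ENSMUSG00000048776, minus strand of chromosome 6, 147252101 to 147264183 on GRCm38) encodes the secreted ligand of the pathway. Its level was 11.1 FPKM in the basal DMSO library, 1.03 in the basal baicalin library, 7.66 in the luminal DMSO library and 8.94 in the luminal baicalin library, from 358, 34, 240 and 299 fragments. The basal baicalin library alone was low, and the other 3 lay close together. Under the basal label the ratio of baicalin to DMSO was 0.093 (0.0634 to 0.132), a level 10.8-fold lower and a log2 change of −2.58. Under the luminal label the ratio was 1.17 (0.982 to 1.39), an interval that includes 1, so these libraries did not differ beyond counting error. The library labelled luminal was below that labelled basal with DMSO, with a ratio of 0.688 (0.581 to 0.812), and above it with baicalin, with a ratio of 8.64 (6.05 to 12.7). Pthlh thus stood above 69.3% of the protein-coding genes detected in the basal DMSO library and above 28.8% of those in the basal baicalin library.

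Markers of several cell types were lower with baicalin under the basal label, as Pthlh was. Of the basal markers 4 of the 10 were lower with baicalin past the threshold, where 3.33% of all genes were lower and 2.15% higher, and the sum of the 10 went from 1761 to 479.4 FPKM. Krt5, a keratin of the basal layer, went from 128.0 to 3.01 FPKM. None of the 10 basal markers was at 0 in these libraries. Past the threshold, 3 of the 5 alveolar markers above 0 in all libraries and 2 of the 6 hormone-sensing markers were lower with baicalin as well, with medians of −1.07 and −0.19 beside −0.65 for the basal markers. Of the luminal markers 1 of 10, Krt8, was lower past it, with a median of −0.38. By sign 6 of the 10 luminal markers were lower and 4 higher, among the higher ones Cldn4, from 272.7 to 475.5 FPKM. Of the fibroblast markers 9 of 10 were lower but 0 past it, with a median of −0.35. Endothelial markers went the other way, 4 of 5 being higher by sign and 0 past the threshold, with a median of 0.135. Of the 4 immune markers above 0 in all libraries, Lyz2 was lower past it, from 8.84 to 2.17 FPKM, and Cd68 higher past it, from 7.49 to 51.5 FPKM. Under the luminal label 3 of the 6 hormone-sensing markers, 2 of the 5 alveolar markers and 3 of the 10 basal markers were lower with baicalin past the threshold and 1 of each list was higher, with medians of −0.96, −0.85 and −0.16, where 1.59% of all genes were lower and 2.37% higher. Among the lower ones Foxa1 went from 9.30 to 1.09 FPKM, Cited1 from 7.36 to 0.580, Csn3 from 4.54 to 0.0933 and Oxtr from 19.4 to 3.61. The higher ones were Ly6a, from 27.95 to 78.13 FPKM, Aldh1a3, from 46.4 to 162.6, and Krt17, from 357.7 to 1140. Of the luminal markers 1, Krt19, was lower past the threshold under the luminal label and 1, Cldn4, higher, with a median of −0.26. By sign 8 of 10 fibroblast, 4 of 4 immune and 5 of 5 endothelial markers above 0 in all libraries were higher there. Their medians were 0.18, 0.77 and 0.21, beside −0.021 over all genes counted. The shares of all genes higher or lower by sign were not counted, so counts by sign are not read as particular to the markers. Past the threshold among these were Pdgfra, lower, from 6.30 to 1.67 FPKM, and Cd68, higher, from 4.44 to 13.7 FPKM. The adipocyte marker Adipoq went from 4.15 to 0.561 FPKM. The part of these markers in the results was not tested. In RNA from bulk cultures, fewer cells of a type and less RNA per cell cannot be told apart. The 3 genes nearest to Pthlh in their pattern over the 4 libraries, out of 2322 candidates, were Gm6254, the proton pump subunit gene Atp6v0a4 and the mitotic spindle gene Ckap2l, at distances of 0.228, 0.494 and 0.546 on the log2 scale. Gm6254 was at 12.5, 1.43, 9.83 and 9.08 FPKM in the order basal DMSO, basal baicalin, luminal DMSO, luminal baicalin.

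Pth1r (ENSMUSG00000032492, minus strand of chromosome 9, 110722085 to 110747145) encodes the receptor of the ligand. It had 2, 1, 6 and 0 fragments in the basal DMSO, basal baicalin, luminal DMSO and luminal baicalin libraries, or 0.0344, 0.0169, 0.106 and 0 FPKM. All 4 libraries were low, and 3 fragments in the last would have been 0.0497 FPKM. With 0 fragments taken as 3, the level with baicalin under the luminal label was 2.13-fold lower than with DMSO. The Poisson intervals of the levels, 0.0389 to 0.231 FPKM with DMSO and 0 to 0.0611 with baicalin, overlapped. Their overlap does not decide whether the levels differ, and no interval of this ratio was computed. With DMSO the ratio of the luminal to the basal label was 3.08 (0.55 to 31.2), so a difference was not detectable at this depth. Per length of exon, Pthlh exceeded its receptor by 324-fold (89.0 to 2684) in the basal DMSO library, by 61.3-fold (10.3 to 2490) in the basal baicalin library and by 72.2-fold (32.7 to 199) in the luminal DMSO library.

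Of 10 other genes of the parathyroid hormone-related protein pathway, 5 were above 0 in all libraries. With baicalin 1 was lower under the basal label and 1 higher under the luminal label, in each case Tnc, which encodes the matrix protein tenascin C. Tnc was at 111.1, 29.6, 52.0 and 132.5 FPKM in the basal DMSO, basal baicalin, luminal DMSO and luminal baicalin libraries. Between labels Tnc was again the 1 gene past the threshold, lower under the luminal label with DMSO and higher with baicalin. Of all genes, 3.33% were lower with baicalin under the basal label and 2.37% higher under the luminal label, and between labels 3.86% were lower with DMSO and 5.24% higher with baicalin. The medians of the list were −0.03 and −0.01 with baicalin under the basal and luminal labels, and −0.13 and −0.18 between labels with DMSO and with baicalin. Gnas, the G protein gene through which PTH1R signals, was between 38.0 and 45.0 FPKM, while the ligand genes Pth and Pth2 were listed at 0 in all.

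Bmp4 (ENSMUSG00000021835, minus strand of chromosome 14, 46383520 to 46390669) encodes the BMP ligand to which bud mesenchyme responds. It was at 1.77 FPKM in the basal DMSO library, 1.25 in the basal baicalin library, 0.046 in the luminal DMSO library and 0.108 in the luminal baicalin library, from 79, 57, 2 and 5 fragments. Both libraries labelled basal were above both labelled luminal. With DMSO the ratio of the luminal to the basal label was 0.026 (0.00309 to 0.097), a level 38.5-fold lower, and with baicalin it was 0.0862 (0.027 to 0.213), or 11.6-fold lower. The log2 differences were −1.41 and −1.02, and the second fell short of the threshold, at −0.99, when changes were centred on their median. Baicalin against DMSO gave ratios of 0.706 (0.493 to 1.01) under the basal label and 2.34 (0.384 to 24.6) under the luminal label, both with intervals that include 1. Without a pseudocount the last became a log2 change of 1.23, past the threshold, from 2 and 5 fragments. The antisense gene Gm15222 within Bmp4 was at 0.0286 FPKM in the basal DMSO library and at 0 in the others.

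Sostdc1 (ENSMUSG00000036169, plus strand of chromosome 12, 36314139 to 36318452) encodes the secreted antagonist. Its level was 2.15 FPKM in the basal DMSO library, 0.0277 in the basal baicalin library, 107.8 in the luminal DMSO library and 79.4 in the luminal baicalin library, from 76, 1, 3715 and 2921 fragments. Both libraries labelled luminal were high, that labelled basal with DMSO was low, and that labelled basal with baicalin was at a single fragment. In the luminal DMSO library Sostdc1 stood above 98.1% of the protein-coding genes detected. With DMSO the ratio of the luminal to the basal label was 50.1 (40.0 to 63.8), a log2 difference of 5.11. With baicalin it was 2869 (515 to 113368), a width set by the single fragment. The ratio of baicalin to DMSO was 0.0129 (0.000322 to 0.074) under the basal label and 0.737 (0.702 to 0.774) under the luminal label, with log2 changes of −1.62 and −0.43. Both intervals lay below 1, and the first change did not pass a threshold of 2. That change was −4.14 with a pseudocount of 0.1, −6.28 without a pseudocount and −3 after scaling to TPM.

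The order of Sostdc1 and Bmp4 within a library followed the label and, under the basal label, the treatment. Per length of exon, the ratio of Sostdc1 to Bmp4 was 1.21 (0.874 to 1.69) in the basal DMSO library, 0.0222 (0.000551 to 0.129) in the basal baicalin library, 2343 (648 to 19352) in the luminal DMSO library and 737 (316 to 2273) in the luminal baicalin library. The antagonist and the ligand were thus at levels that did not differ beyond counting error in the first, the ligand was higher in the second, and the antagonist was higher in both libraries labelled luminal. Basal markers were also higher in both libraries labelled luminal, as given above, and their part in the Sostdc1 and Bmp4 differences was not tested. The 3 genes nearest to Sostdc1 in pattern were the growth factor binding protein gene Igfbp3 and the contractile genes Myl9 and Acta2, at distances of 0.639, 0.674 and 0.741, and Acta2 is itself among the basal markers. Igfbp3 was at 7.43, 1.67, 218.8 and 123.4 FPKM, and Myl9 at 1.65, 0.127, 84.7 and 44.8 FPKM. The sum of the fibroblast markers was higher in the libraries labelled basal, like Bmp4, through Fn1. Col1a1 was at 2.47, 0.841, 1.5 and 2.74 FPKM in the order basal DMSO, basal baicalin, luminal DMSO, luminal baicalin, and 3 of the 10 with DMSO and 8 of the 10 with baicalin were higher under the luminal label.

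Of 29 other genes of the BMP pathway, 26 were above 0 in all libraries. With baicalin 1 was higher and 2 lower under the basal label, 1 higher and 0 lower under the luminal label, with medians of −0.04 and −0.10, where 2.15% and 3.33% of all genes were higher and lower under the basal label and 2.37% and 1.59% under the luminal label. Between labels 5 were higher and 1 lower with DMSO and 5 higher and 0 lower with baicalin, with medians of 0.28 and 0.17, where 4.71% and 3.86% of all genes were higher and lower with DMSO and 5.24% and 2.99% with baicalin. The ligand gene Bmp2 went the way of Bmp4, at 4.02, 1.28, 0.116 and 0.273 FPKM in the order basal DMSO, basal baicalin, luminal DMSO, luminal baicalin, with a ratio of the luminal to the basal label of 0.0289 (0.0124 to 0.0577) with DMSO. The ligand gene Bmp7 went opposite to Bmp4, at 0.326, 0.0981, 21.2 and 16.8 FPKM in this order, with a ratio of 64.9 (44.2 to 99.7) between the labels with DMSO. Bmp7 exceeded Bmp4 per length by 460-fold (127 to 3801) in the luminal DMSO library and was 0.184 (0.113 to 0.29) of it in the basal DMSO library. Among the Id genes, which BMP signals induce, Id3 went from 20.8 to 4.62 FPKM with baicalin under the basal label and Id4 from 3.23 to 9.45, and between labels with DMSO Id4, Bambi and Acvr2a were higher under the luminal label by 12.5-fold, 8.82-fold and 3.22-fold.

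Msx2 (ENSMUSG00000021469, minus strand of chromosome 13, 53466884 to 53473074) encodes a homeobox repressor. It was at 0.845 FPKM in the basal DMSO library, 2.21 in the basal baicalin library, 2.11 in the luminal DMSO library and 3.19 in the luminal baicalin library, from 55, 147, 134 and 216 fragments. The basal DMSO library was the lowest, the luminal baicalin library the highest, and the other 2 were close. Msx2 was the regulator whose ratio of baicalin to DMSO lay above 1 beyond counting error under both labels, at 2.62 (1.91 to 3.63) under the basal label and 1.51 (1.21 to 1.89) under the luminal label. The log2 changes were 0.80 and 0.43, short of the threshold. The first passed it with a pseudocount of 0.1, without a pseudocount and after scaling to TPM, at 1.29, 1.39 and 1.12. Between labels the ratio was 2.50 (1.81 to 3.49) with DMSO and 1.44 (1.17 to 1.79) with baicalin, the library labelled luminal being the higher. The log2 difference with DMSO, 0.75, passed the threshold with a pseudocount of 0.1, at 1.23, and without a pseudocount, at 1.32.

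Msx1 (ENSMUSG00000048450, minus strand of chromosome 5, 37820485 to 37824583), the paralogue of Msx2, had 0, 1, 14 and 21 fragments in the basal DMSO, basal baicalin, luminal DMSO and luminal baicalin libraries, or 0, 0.0159, 0.234 and 0.328 FPKM. It was above 3 fragments in the libraries labelled luminal only, where it stayed under 1 FPKM. With DMSO it was 4.79-fold higher in the library labelled luminal when 0 fragments are taken as 3, a value without an interval for counting error. With baicalin the ratio of the luminal to the basal label was 20.6 (3.32 to 853). Baicalin against DMSO under the luminal label gave 1.41 (0.682 to 2.99), which was not a detectable difference at this depth. Msx2 exceeded Msx1 per length by 139-fold (24.6 to 5528) in the basal baicalin library, and by 9.04-fold (5.20 to 17.0) and 9.71-fold (6.20 to 16.0) in the luminal DMSO and luminal baicalin libraries. Of 7 other Msx and Dlx homeobox genes 4 were above 0 in all libraries, 0 of which passed the threshold with baicalin or between labels with DMSO, and 1, Dlx2, was higher past it under the luminal label with baicalin, where between 1.59% and 5.24% of all genes passed it in each direction of the 4 comparisons. Dlx2 was at 0.0176, 0.0345, 0.76 and 1.88 FPKM, and its ratio of the luminal to the basal label was 43.1 (7.32 to 1742) with DMSO and 54.5 (14.7 to 456) with baicalin. The medians of the 4 genes were 0.26 and 0.17 with baicalin under the basal and luminal labels, and 0.32 and 0.06 between labels. Dlx1 and Dlx4 were under 1 FPKM in all 4 libraries, so they could not pass the threshold. By sign 3 of the 4 were higher with baicalin under the basal label and 1 lower. Among the higher ones, Dlx5 went from 1.71 to 4.40 FPKM, a ratio of 2.57 (1.97 to 3.38) and a log2 change of 0.99. Dlx4 had a ratio of 4.77 (2.2 to 11.8) there.

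Lef1 (ENSMUSG00000027985, plus strand of chromosome 3, 131110471 to 131224356) encodes the transcription factor that reads Wnt signals with β-catenin. It had 0, 2, 0 and 1 fragments in the basal DMSO, basal baicalin, luminal DMSO and luminal baicalin libraries, or 0, 0.0112, 0 and 0.0055 FPKM, on 8788 bases of exon. No library exceeded 3 fragments, which for this gene would be between 0.0165 and 0.0176 FPKM, so no fold between libraries is given. Genes of the same family were well detected. Tcf7l2 was at 3.85, 2.53, 9.22 and 7.17 FPKM in this order of libraries and exceeded Lef1 per length by 226-fold (62.1 to 1869) in the basal baicalin library and 1303-fold (233 to 51497) in the luminal baicalin library, widths set by the 2 and 1 fragments of Lef1. Tcf7 was at 9.92, 7.17, 22.9 and 16.6 FPKM. Ctnnb1, which encodes β-catenin, was between 199.2 and 288.3 FPKM.

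Of 32 other genes of Wnt reception and LEF/TCF function, 26 were above 0 in all libraries. With baicalin 0 were higher and 0 lower under the basal label and 0 higher and 1 lower under the luminal label, with medians of −0.19 and −0.29, beside all-gene shares of 2.15% higher and 3.33% lower, and of 2.37% higher and 1.59% lower. Between labels 6 were higher and 1 lower with DMSO and 8 higher and 1 lower with baicalin, with medians of 0.62 and 0.57, beside all-gene shares of 4.71% higher and 3.86% lower with DMSO and 5.24% higher and 2.99% lower with baicalin. The all-gene medians were 0.0099 and −0.027. The gene lower with baicalin under the luminal label was Lgr5, a receptor for R-spondins, which went from 17.7 to 1.94 FPKM, a ratio of 0.109 (0.0985 to 0.121). Lgr5 was also lower with baicalin under the basal label, from 0.398 to 0.024 FPKM, a ratio of 0.0604 (0.0191 to 0.147) that did not pass the threshold at these low levels. By sign 18 of the 26 were lower and 8 higher with baicalin under the luminal label. The higher ones included Axin2, at a ratio of 2.04 (1.70 to 2.44), and Wnt10a, at 2.16 (1.82 to 2.57), both short of the threshold. Under the basal label these were lower, at 0.538 (0.305 to 0.928) and 0.357 (0.257 to 0.491). The share of all genes by sign was not counted. The gene lower under the luminal label was with DMSO and with baicalin the ligand gene Wnt7b, at 43.8 and 47.9 FPKM in the libraries labelled basal and 4.39 and 7.05 in those labelled luminal. Lrp4, whose product binds SOSTDC1, was at 0.441, 1.10, 3.35 and 2.89 FPKM.

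Tbx3 (ENSMUSG00000018604, plus strand of chromosome 5, 119670669 to 119684724) encodes a T-box repressor needed for the mammary placodes. It was at 7.51 FPKM in the basal DMSO library, 7.75 in the basal baicalin library, 12.7 in the luminal DMSO library and 9.83 in the luminal baicalin library, from 988, 1041, 1622 and 1345 fragments. All 4 libraries were within a narrow range, the luminal DMSO library being the highest, and Tbx3 stood above 59.5% to 74.4% of the protein-coding genes detected. Baicalin against DMSO gave a ratio of 1.03 (0.944 to 1.13) under the basal label, where the libraries did not differ beyond counting error, and of 0.777 (0.723 to 0.836) under the luminal label. Between labels the ratio was 1.68 (1.55 to 1.82) with DMSO and 1.27 (1.17 to 1.38) with baicalin. The antisense gene Tbx3os1 overlaps the start of Tbx3 and was at 0.159, 0.14, 0.392 and 0.275 FPKM. Whether the counting used strand is not given in the sources used here, so fragments of the pair cannot be told apart where they overlap.

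Tbx2 (ENSMUSG00000000093, plus strand of chromosome 11, 85832551 to 85841948) encodes the related repressor that acts with TBX3. It was at 0.0695 FPKM in the basal DMSO library, 0.136 in the basal baicalin library, 1.94 in the luminal DMSO library and 1.82 in the luminal baicalin library, from 5, 10, 136 and 136 fragments. Both libraries labelled luminal were above both labelled basal. The ratio of the luminal to the basal label was 27.9 (11.7 to 87.3) with DMSO and 13.4 (7.05 to 28.5) with baicalin, log2 differences of 1.46 and 1.31. Baicalin against DMSO gave 1.96 (0.61 to 7.30) under the basal label and 0.937 (0.734 to 1.20) under the luminal label, neither beyond counting error. Tbx3 exceeded Tbx2 per length in every library, by 108-fold (46.2 to 334) and 57.0-fold (30.9 to 119) in the libraries labelled basal with DMSO and with baicalin, and by 6.53-fold (5.48 to 7.84) and 5.41-fold (4.54 to 6.51) in those labelled luminal. Of 15 other T-box genes 5 were above 0 in all libraries and 0 passed the threshold in any of the 4 comparisons, beside all-gene shares of 1.59% to 5.24% in each direction. Their medians were −0.09 and 0.11 with baicalin under the basal and luminal labels, and −0.09 and −0.04 between labels. Tbx15, Tbx18 and Tbr1 were under 1 FPKM in all 4 libraries, so they could not pass it. By sign 2 of the 5 were higher with baicalin under the basal label and 4 under the luminal label. Tbx6 was higher under both, at ratios of 2.45 (1.61 to 3.81) and 1.98 (1.23 to 3.25). Tbx18 was lower under the basal label, at 0.0979 (0.00226 to 0.688), from 1 fragment against 10.

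**Figure D2:**
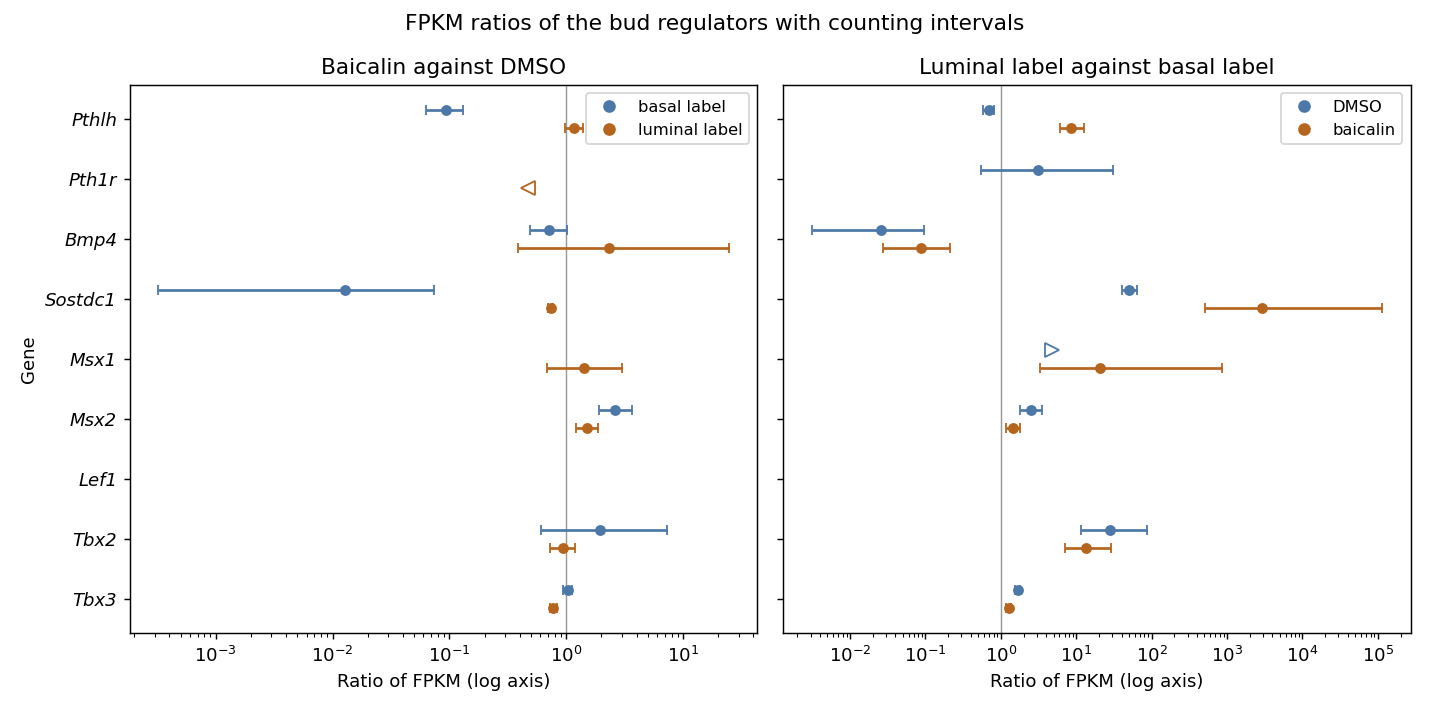
Ratios of FPKM on a log axis for the 9 regulators, with bars for the exact 95% Clopper-Pearson interval. The left side gives baicalin against DMSO by label, and the right side the luminal against the basal label by treatment. Open triangles are ratios with 3 fragments taken where none was counted, and have no interval. Pthlh and Sostdc1 under the basal label lie farthest below 1 on the left, at 0.093 and 0.0129, and on the right Bmp4 lies below 1 in both treatments and Sostdc1, Msx1, Tbx2, Msx2 and Tbx3 lie above it.

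Of 29 other genes of placode and bud induction, 20 were above 0 in all libraries. With baicalin 0 were higher and 3 lower under the basal label and 0 higher and 1 lower under the luminal label, with medians of −0.05 and −0.05, where the shares of all genes were 2.15% higher and 3.33% lower, then 2.37% and 1.59%. Between labels 6 were higher and 0 lower with DMSO and 4 higher and 1 lower with baicalin, with medians of 0.31 and 0.39, where the shares of all genes were 4.71% higher and 3.86% lower, then 5.24% and 2.99%. Trp63, which encodes the basal transcription factor p63 and is also among the basal markers, was at 6.01, 0.305, 25.2 and 27 FPKM in the order basal DMSO, basal baicalin, luminal DMSO, luminal baicalin. Gli3, a hedgehog effector and repressor in the bud, was at 3.02, 0.632, 8.79 and 9.40 FPKM, and Trps1 went from 33.8 to 15.1 FPKM with baicalin under the basal label and from 32.1 to 14.6 under the luminal label. Fgfr2, the receptor gene for FGF10, was 8.86-fold (7.92 to 9.92) higher under the luminal label with DMSO.

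Promoter sequences of RefSeq on GRCm38.p6 were matched for 6 of the 9 regulators, and those of Sostdc1, Tbx2 and Tbx3 were not. The windows of Bmp4 and Msx1 are shown because these regulators lay on opposite sides of the labels, Bmp4 higher under the basal label and Msx1 above 3 fragments under the luminal label only. Each is the 250 bases before the start of the gene in RefSeq, on the minus strand, printed 5′ to 3′, at chr14:46390670-46390919 for Bmp4 and chr5:37824586-37824835 for Msx1, and neither overlaps the gene as annotated by GENCODE, from which the Msx1 window is 2 bases away. The windows of Pthlh and Msx2 are not shown because they overlap the annotated genes.
Bmp4: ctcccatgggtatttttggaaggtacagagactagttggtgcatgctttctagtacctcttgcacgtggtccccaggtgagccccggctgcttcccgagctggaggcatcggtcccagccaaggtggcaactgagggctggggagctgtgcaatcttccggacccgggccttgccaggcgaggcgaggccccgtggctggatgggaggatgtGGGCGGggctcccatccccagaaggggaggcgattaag
Msx1: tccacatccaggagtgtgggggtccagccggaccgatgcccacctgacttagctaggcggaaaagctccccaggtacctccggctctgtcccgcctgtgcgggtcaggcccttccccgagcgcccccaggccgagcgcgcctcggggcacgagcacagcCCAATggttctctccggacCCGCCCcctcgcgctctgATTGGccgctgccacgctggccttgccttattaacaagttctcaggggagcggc
Capitals mark the GC box GGGCGG and the CCAAT box CCAAT on either strand, which were chosen after the sequences were seen. Bmp4 held 1 GC box and 0 CCAAT boxes, and Msx1 held 1 and 2, and among 27025 promoters of the same length 32.9% held the GC box letters and 34.5% the CCAAT letters. Neither window held the letters CTTTG of LEF/TCF factors, TAATT of homeodomain factors, GGTGTG of T-box factors or TATAAA of the TATA box, which 48.8%, 25.4%, 16.2% and 13% of all promoters held on either strand. Of the 9 windows of the other 4 matched regulators, 6 of which lie wholly or partly inside the annotated gene, CTTTG was in 7 (of Pthlh, Pth1r and Lef1), TAATT in 2 (of Msx2 and Lef1), GGTGTG in 2 (of Pth1r and Lef1) and TATAAA in 1 (of Lef1). The windows of Bmp4 and Msx1 were 63.2% and 68% G and C, beside a median of 52% over all promoters.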

How the data were processed

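Stranded libraries were made by the authors from RNA selected on oligo (dT) beads, and per the methods of the study they mapped reads to GRCm38 with HISAT2 and used featureCounts with an Ensembl annotation. They deposited FPKM per gene. The submitters' processing notes also name Bowtie 0.12.2 and mm8, with no role given.

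Exon lengths came from GENCODE mouse release 21 on GRCm38, for 54409 genes. The product of FPKM and exon length rose in steps worth 1 fragment, and between 98.5% and 98.7% of low genes came out within 0.05 of a whole fragment, which gave the depths and intervals. Nothing was tested between conditions. The regulators and gene lists were chosen with earlier results of these data known. Genes of the 6 pathway lists were named where they passed the threshold at 5 FPKM or more in a library, at most 4 per list and comparison. Not all of these are reported. The genes Gnas, Pth, Pth2, Bmp2, Ctnnb1, Lrp4, Axin2, Dlx1, Dlx2, Dlx4, Dlx5, Tbx6, Tbx15, Tbx18 and Tbr1 were added after their values were seen, as were the single markers named. Likeness in pattern was the Euclidean distance between centred log2(FPKM + 1) values of genes reaching 5 FPKM with a range of at least 1. Transcripts were aligned for near-identical copies, and those found were the antisense genes Tbx3os1 of Tbx3 and Gm43352 of Lef1, the latter listed at 0. The 9 alternatives were 2 pseudocount settings, other filters, TPM scaling, centring and a threshold of 2. The computation was tested on simulated data. Values were computed in Python 3.11.15 with scipy 1.17.1, pandas 2.3.3 and numpy 2.4.6, and plotted with matplotlib 3.10.9.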

Additional observations from a re-analysis of the deposited data

Results flagged for a closer look

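The change with baicalin had opposite signs under the basal and luminal labels for 4 of the 6 regulators above 0 in all libraries. The share of all genes with opposite signs was not counted, so 4 of 6 is not read as particular to the regulators. The basal change minus the luminal change was −2.78 for Pthlh on the scale of log2(FPKM + 1), −0.38 for Bmp4, 0.15 for Tbx2 and 0.37 for Tbx3. With 1 library per group, these differences were not tested. Only the Pthlh change under the basal label passed the threshold of 1, at −2.58. The intervals of the ratios for Bmp4 and Tbx2 included 1 under both labels, that for Pthlh did so under the luminal label and that for Tbx3 under the basal label.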

How the results depend on the processing

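A comparison of baicalin with DMSO over both labels, with the label as a block, was not run. Low depth limits Pth1r, Msx1 and Lef1, and Bmp4 and Tbx2 on the side of the label where they were low. It also limits Sostdc1 in the basal baicalin library, where it had 1 fragment. None of the 4 comparisons has a replicate, so the spread between cultures is unknown. Of 137 recomputed changes of single regulators, 108 shifted by less than 0.5 of the width of the counting interval of their ratio on the log2 scale, or by under 0.1 where there was no interval, 29 shifted by more and 0 reversed after passing the threshold. Of the 29, 13 did so with a pseudocount of 0.1, 13 with none and 3 with TPM.

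Counts of regulators past the threshold changed as follows. With baicalin under the basal label, the count higher went from 0 to 1 with a pseudocount of 0.1, with no pseudocount and with TPM, and the count lower from 2 to 1 at a threshold of 2. Under the luminal label the count higher went from 0 to 1 with no pseudocount. Between labels with DMSO the counts went from 2 to 1 higher and from 1 to 0 lower at a threshold of 2, and from 2 to 3 higher with a pseudocount of 0.1 and with none. With baicalin the count lower went from 1 to 0 after centring and at a threshold of 2, where the count higher went from 3 to 2.

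Counts over all genes are given for a pseudocount of 0.1, no pseudocount, TPM and a threshold of 2, in that order. With baicalin under the basal label, 383 genes higher became 1123, 1693, 696 and 41, and 592 lower became 1302, 2054, 1002 and 132. Under the luminal label, 421 higher became 1052, 1559, 718 and 60, and 282 lower became 913, 1537, 578 and 46. Between labels with DMSO, 837 higher became 2027, 2872, 1306 and 185, and 686 lower became 1467, 1926, 1279 and 150. With baicalin, 932 higher became 2030, 2632, 1439 and 242, and 531 lower became 1327, 2003, 1083 and 59. A smaller pseudocount enlarges changes of low genes by construction, and TPM does likewise because it raises every value against a pseudocount of 1.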
